A study of Mus musculus with 9 samples.

Results

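The 10 genes followed here mark macrophages, and they were measured in laser-captured prostate lesions of mice: Cd68, Csf1r, Adgre1, Lyz2, C1qa, C1qb, C1qc, Mrc1, Aif1 and Tyrobp. They were chosen by name as a marker list, and all 10 were measured, each by 1 probe set, among 22180 named genes. All 10 also passed the filter on low signal. The lesions came from 12-month-old male mice of mixed strain, and formalin-fixed, paraffin-embedded sections were captured by laser and measured on 9 Affymetrix Mouse Gene 2.0 ST arrays. There were 3 groups of 3 arrays each: poorly differentiated adenocarcinoma, called tumour here, from PbCre;T-3Mb-Erg/+ mice, high-grade prostatic intraepithelial neoplasia (HG-PIN, dysplastic cells still within the gland) from those 3 mice too, and HG-PIN from 3 PbCre control mice without the T-3Mb-Erg allele. PbCre is a Cre recombinase driven by the probasin promoter, which is active in prostate epithelium. It was carried by both genotypes. The control lesions are HG-PIN and not normal tissue, and the labels do not say in which cells the T-3Mb-Erg allele is present. The labels give the captured HG-PIN material as epithelial, and do not state a cell purity.

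Macrophages are phagocytes of the innate immune system that reside in most tissues and that also enter tumours from blood monocytes. Their survival depends on signals through the receptor encoded by Csf1r. They engulf debris and cells tagged by complement, break them down in lysosomes, and make most of the body's C1q. In captured epithelium, transcripts of these genes can come from macrophages within or beside the lesion, and a bulk measurement cannot tell fewer cells from less RNA per cell. Several members are not confined to macrophages: Lyz2 and Tyrobp are also used by other myeloid cells, and Tyrobp by natural killer cells.

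The 3 C1q genes lie next to each other on chromosome 4, with C1qc between C1qb and C1qa, and encode the 3 chains of 1 protein. The 250 bases before the starts of the neighbours C1qb and C1qc (RefSeq, GRCm38.p6) are shown. A difference in pattern between these genes over the lesions was not tested, and the C1qc signal was mostly at background, as given below. The C1qb window lies at chr4:136886201-136886450 and the C1qc window at chr4:136892915-136893164, both on the minus strand, and capitals mark the only match in each to AGGAAGT, here as its reverse complement ACTTCCT.
C1qb: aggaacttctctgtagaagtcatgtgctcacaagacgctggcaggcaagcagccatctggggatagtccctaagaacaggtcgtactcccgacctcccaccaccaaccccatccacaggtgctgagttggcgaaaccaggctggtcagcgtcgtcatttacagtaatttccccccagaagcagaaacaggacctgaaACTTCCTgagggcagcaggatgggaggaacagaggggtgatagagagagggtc
C1qc: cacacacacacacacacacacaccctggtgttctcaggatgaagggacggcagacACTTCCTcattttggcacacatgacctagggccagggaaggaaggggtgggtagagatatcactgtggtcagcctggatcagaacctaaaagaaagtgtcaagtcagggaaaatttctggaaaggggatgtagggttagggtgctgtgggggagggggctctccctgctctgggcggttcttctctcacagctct
Promoter windows were found for 6 of the 10 members. Over both strands, 9 motifs were searched, some nested in others, and AGGAAGT was picked for display after the matches were seen. It was in 4 of the 6 windows (Lyz2, C1qb, C1qc and Mrc1) and in 7.69% of 32851 promoter windows of the same length. The strings GGAAGT and AGGAAG, which it contains, were in the same 4 windows, and in 19.7% and 29.5% of all windows. GAGGAA was in 5 of the 6 windows and in 23.3% of all windows. GAGGAAGT, AGAGGAA and TGACTCA were each in 1 of the 6 windows, and in 2.44%, 8.55% and 4.46% of all windows. GGGAAGT and TTACGTAA were in 0 of the 6, and in 4.82% and 0.113% of all windows. A match is a description of the letters only.

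The arrays had median intensities from 13.6 to 15.4, and their 95th percentile of log2 intensity over named genes ran from 5.61 to 6.25, so the range of signal differed between arrays. As a gauge of background, the 95th percentile of the mean log2 intensity of 1394 olfactory and vomeronasal receptor genes, which prostate is not known to use, was 4.80. The means of 5 of the 10 members (Cd68, Lyz2, C1qa, C1qb and Tyrobp) lay above that level, and those of Csf1r, Adgre1, C1qc, Mrc1 and Aif1 lay below it. Against the same percentile taken on each array by itself, Tyrobp was above on 9 of 9 arrays, Cd68 and C1qb on 7, C1qa on 6, Lyz2 on 4, Csf1r and C1qc on 2, Adgre1 and Mrc1 on 1, and Aif1 on 0. The signal of macrophage genes was thus above background for part of the list only, and a small change in a dim member was not detectable here. Ptprc, which encodes the leukocyte antigen CD45, lay between 2.23 and 3.98 in log2 intensity over the 9 arrays and failed the filter on low signal.

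None of the 10 macrophage genes passed the test in any of the 3 comparisons. Differences were fitted with limma over 16635 genes, with the mouse as a random block, and a gene was called at a Benjamini-Hochberg adjusted p under 0.05. In tumour against the HG-PIN that shared its mice, 0 of 10 members were called, where 0.283% of all genes were (47 genes, with 11 or 0.0661% higher and 36 or 0.216% lower). In T-3Mb-Erg HG-PIN against control HG-PIN, 0 of 10 members and 0% of all genes were called. At an unadjusted p under 0.05, 682 genes passed there, or 4.1%. In T-3Mb-Erg tumour against control HG-PIN, 0 of 10 members were called, where 0.18% of all genes were (30 genes, with 18 or 0.108% higher and 12 or 0.0721% lower). With no adjustment, 0 of 10 members had a p under 0.05 in any comparison, where 7.65%, 4.1% and 9.32% of all genes did, and the smallest adjusted p of a member in limma was 0.685, 0.998 and 0.636 in the 3 comparisons in this order. The median log2 difference of the members was -0.0045 in tumour against T-3Mb-Erg HG-PIN (all genes, -0.0077), 0.16 in T-3Mb-Erg HG-PIN against control HG-PIN (all genes, -0.0036) and 0.06 in tumour against control HG-PIN (all genes, -0.03). With 1 array left out, the 3 medians ranged from -0.29 to 0.21, from 0.08 to 0.35 and from -0.01 to 0.15. In the same order, 5, 8 and 6 of the 10 differences were above 0.

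**Figure D1:**
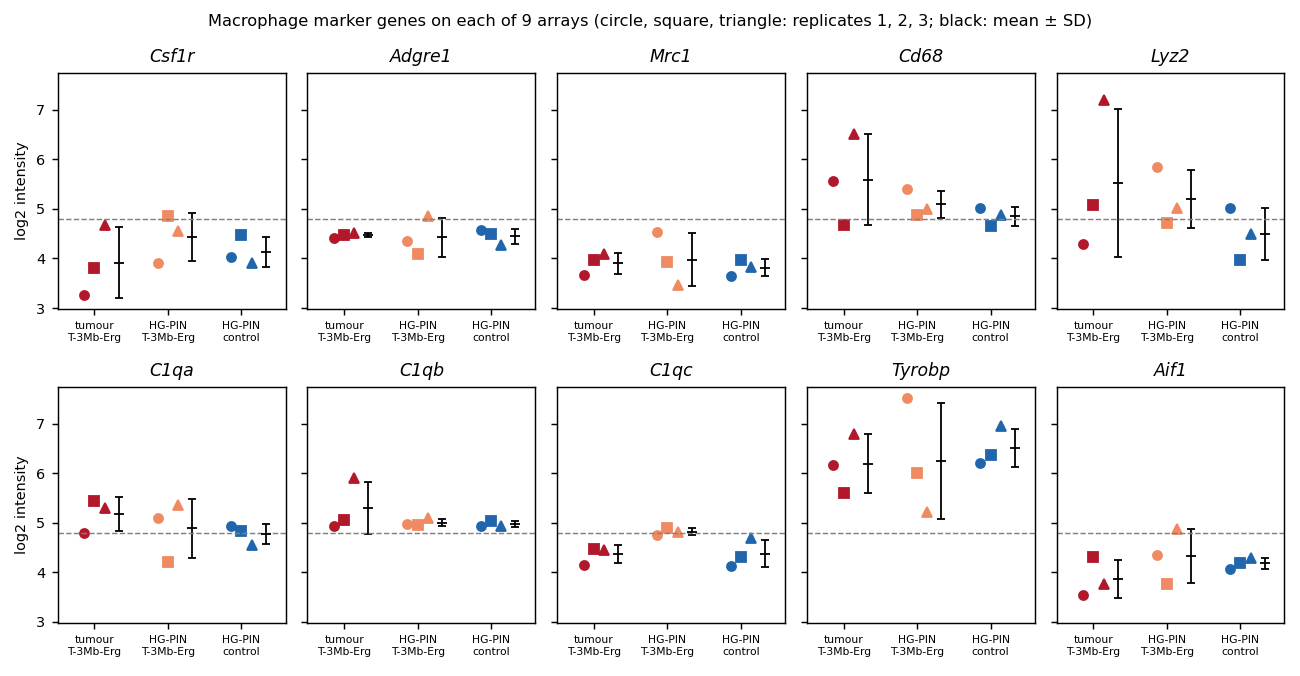
Log2 intensity of each of the 10 macrophage genes on each of the 9 arrays, for tumours and HG-PIN of T-3Mb-Erg mice and HG-PIN of control mice. Circles, squares and triangles are replicates 1, 2 and 3, black bars the mean ± SD (n = 3), and the dashed line the receptor-gene level of 4.80; in most panels the 3 groups overlap, and tumour replicate 3 stands high for Cd68, Lyz2 and C1qb.

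The surface receptors of the list were at or near background. Csf1r, the receptor for the growth factors CSF1 and IL-34, had log2 intensities of 3.27, 3.80 and 4.68 in tumours, 3.90, 4.86 and 4.55 in T-3Mb-Erg HG-PIN, against 4.04, 4.48 and 3.90 in control HG-PIN. The 3 groups overlapped, with the lowest array in a tumour and the highest in T-3Mb-Erg HG-PIN. The difference was -0.52 ± 0.36 (SE) between tumour and HG-PIN of T-3Mb-Erg mice (adjusted p = 0.868 in limma), 0.30 ± 0.35 between T-3Mb-Erg HG-PIN and control HG-PIN (adjusted p = 0.998), and -0.22 ± 0.35 between tumour and control HG-PIN (adjusted p = 0.921). The first was -0.15 without tumour replicate 1 and -0.89 without tumour replicate 3.

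Adgre1 encodes the adhesion receptor known as F4/80, the classical surface marker of mouse macrophages. It had 4.42, 4.48 and 4.51 in log2 intensity in tumours, 4.34, 4.08 and 4.85 in T-3Mb-Erg HG-PIN, against 4.57, 4.49 and 4.27 in control HG-PIN. Its group means, 4.47 ± 0.05, 4.42 ± 0.39 and 4.45 ± 0.15 (SD, n = 3 each), were nearly level. The 95% interval of its difference ran from -0.46 to 0.55 in tumour against T-3Mb-Erg HG-PIN, from -0.52 to 0.48 in T-3Mb-Erg HG-PIN against control HG-PIN, and from -0.48 to 0.53 in tumour against control HG-PIN. A change of 2-fold in intensity in either direction (1 on the log2 scale) lies outside all 3 intervals. The probe set was above the receptor-gene level of the array on 1 array only. The intervals thus bound its intensity and cannot exclude a 2-fold change in Adgre1 RNA.

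Mrc1 encodes the mannose receptor CD206, which binds sugars and is often used to mark tissue-resident and alternatively activated macrophages. It had 3.66, 3.96 and 4.08 in tumours, 4.53, 3.93 and 3.47 in T-3Mb-Erg HG-PIN, against 3.64, 3.97 and 3.83 in control HG-PIN, in log2 intensity. Both the highest and the lowest value fell in T-3Mb-Erg HG-PIN. Its differences were -0.08, 0.16 and 0.08 in the 3 comparisons, each below its SE of 0.26.

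Cd68 and Lyz2, a lysosomal protein and a phagocyte enzyme, had the largest SD among the tumours of all 10 members (0.916 and 1.497). Cd68, a glycoprotein of lysosomes that is abundant in phagocytes, had 5.57, 4.68 and 6.51 in tumours, 5.40, 4.87 and 4.996 in T-3Mb-Erg HG-PIN, against 5.02, 4.65 and 4.88 in control HG-PIN, in log2 intensity. Tumour replicates 1 and 3 lay above every HG-PIN array of either genotype, while tumour replicate 2 lay among the lowest. The difference was 0.50 ± 0.40 (SE) in tumour against T-3Mb-Erg HG-PIN (adjusted p = 0.92 in limma), 0.24 ± 0.40 in T-3Mb-Erg HG-PIN against control HG-PIN (adjusted p = 0.998) and 0.74 ± 0.40 in tumour against control HG-PIN (adjusted p = 0.636). Without tumour replicate 3, the first was 0.02 and the last 0.26.

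Lyz2 encodes lysozyme M, an enzyme that cuts bacterial cell walls and that monocytes, macrophages and neutrophils store in quantity. It had 4.30, 5.07 and 7.19 in tumours, 5.85, 4.71 and 5.02 in T-3Mb-Erg HG-PIN, against 5.02, 3.97 and 4.50 in control HG-PIN, in log2 intensity. Tumour replicate 3 was the highest of all arrays, and tumour replicate 1, from another mouse, was below 7 of the 9. The difference was 0.33 ± 0.62 (SE) in tumour against T-3Mb-Erg HG-PIN (adjusted p = 0.995 in limma), 0.70 ± 0.61 in T-3Mb-Erg HG-PIN against control HG-PIN (adjusted p = 0.998), and 1.03 ± 0.61 in tumour against control HG-PIN, or 2.04-fold (adjusted p = 0.70). Without tumour replicate 3, the first became -0.53 and the last 0.17. The neighbouring gene Lyz1 is a close copy of Lyz2, and probes may not separate them fully.

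The 3 chains C1qa, C1qb and C1qc form C1q, which binds antibody complexes and dying cells and starts the classical complement pathway. Over the 9 arrays the Pearson correlation was 0.46 between C1qa and C1qb (Spearman 0.76), -0.04 between C1qb and C1qc and -0.16 between C1qa and C1qc. Without tumour replicate 3 the Pearson values were 0.69, 0.21 and -0.14. C1qa had 4.80, 5.44 and 5.31 in tumours, 5.10, 4.21 and 5.35 in T-3Mb-Erg HG-PIN, against 4.94, 4.83 and 4.55 in control HG-PIN, in log2 intensity. C1qb had 4.93, 5.06 and 5.90 in tumours, 4.97, 4.95 and 5.09 in T-3Mb-Erg HG-PIN, against 4.94, 5.04 and 4.93 in control HG-PIN. Apart from tumour replicate 3, C1qb kept within a narrow range on all arrays. In tumour against T-3Mb-Erg HG-PIN the difference was 0.29 ± 0.32 (SE) for C1qa and 0.29 ± 0.28 for C1qb, and the value for C1qb was 0.0024 without tumour replicate 3. In T-3Mb-Erg HG-PIN against control HG-PIN they were 0.11 and 0.03, and in tumour against control HG-PIN 0.41 and 0.33.

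C1qc had 4.16, 4.48 and 4.46 in tumours, 4.76, 4.90 and 4.82 in T-3Mb-Erg HG-PIN, against 4.13, 4.32 and 4.69 in control HG-PIN, in log2 intensity. All 3 T-3Mb-Erg HG-PIN arrays lay above the 3 tumour arrays and above the 3 control arrays, while tumours and control HG-PIN overlapped. C1qc was the only member whose groups were separate in a comparison, against 11.4% of all genes in tumour against T-3Mb-Erg HG-PIN (4.97% higher and 6.43% lower) and 10.1% in T-3Mb-Erg HG-PIN against control HG-PIN (4.86% higher and 5.25% lower). A count of 1 of 10 members was near those shares. In tumour against control HG-PIN it was 0 of 10 members, where 13.7% of all genes were separate (6.2% higher and 7.51% lower). The C1qc difference was -0.46 ± 0.22 (SE; 95% interval -0.94 to 0.02, adjusted p = 0.685 in limma) in tumour against T-3Mb-Erg HG-PIN. It was 0.44 ± 0.22 (-0.03 to 0.92, adjusted p = 0.998) in T-3Mb-Erg HG-PIN against control HG-PIN. Both use the same 3 T-3Mb-Erg HG-PIN arrays. Within the mice, the C1qc difference between tumour and HG-PIN was -0.60, -0.41 and -0.36 on the log2 scale. Its sign in each mouse follows from the separation of those groups and adds nothing to it. No other member had 1 direction in all 3 mice, and the share of all genes with 1 direction was not computed.

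The last members are an adaptor and a cytoplasmic protein. Tyrobp, also called DAP12, is a membrane adaptor that passes on signals of myeloid and natural killer cell receptors such as TREM2. It had 6.18, 5.60 and 6.80 in tumours, 7.52, 6.01 and 5.23 in T-3Mb-Erg HG-PIN, against 6.21, 6.37 and 6.94 in control HG-PIN, in log2 intensity. It was above the receptor-gene level of the array on all 9, and its highest and lowest arrays were both T-3Mb-Erg HG-PIN. The difference was -0.06 ± 0.54 (SE) in tumour against T-3Mb-Erg HG-PIN, -0.26 ± 0.54 in T-3Mb-Erg HG-PIN against control HG-PIN and -0.31 ± 0.54 in tumour against control HG-PIN (adjusted p from 0.928 to 0.999 in limma). The 95% interval of the first ran from -1.25 to 1.13.

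Aif1 encodes IBA1, a calcium-binding protein that bundles actin in macrophages and microglia. It had 3.55, 4.30 and 3.77 in tumours, 4.35, 3.78 and 4.87 in T-3Mb-Erg HG-PIN, against 4.06, 4.18 and 4.30 in control HG-PIN, in log2 intensity. The groups overlapped. The difference was -0.46 ± 0.29 (SE) in tumour against T-3Mb-Erg HG-PIN (adjusted p = 0.828 in limma), 0.15 ± 0.29 in T-3Mb-Erg HG-PIN against control HG-PIN (adjusted p = 0.998) and -0.31 ± 0.29 in tumour against control HG-PIN (adjusted p = 0.833).

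**Figure D2:**
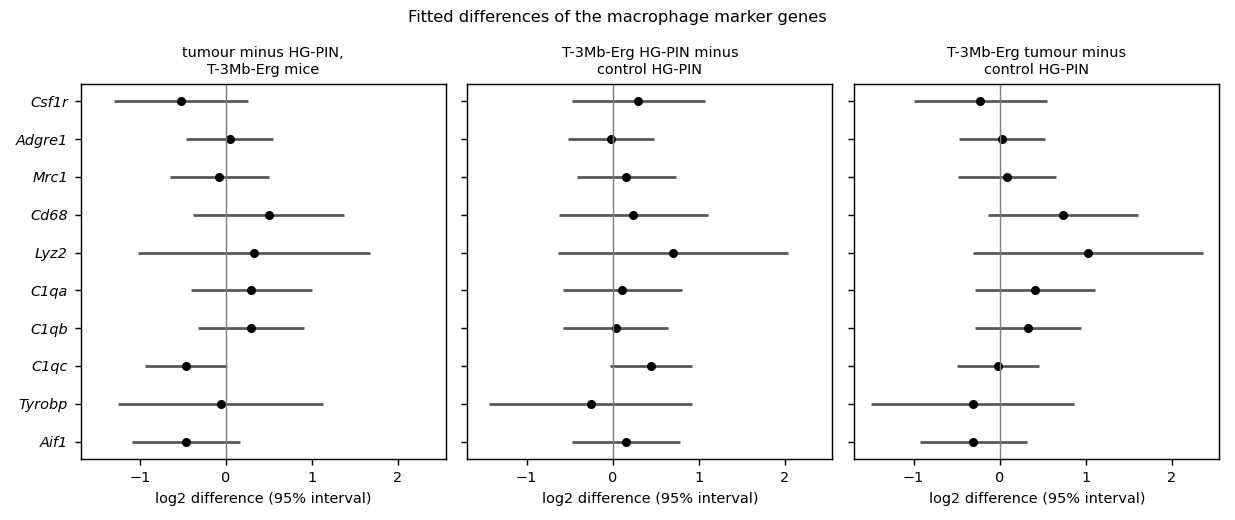
Fitted log2 differences (points) and their 95% intervals (bars) for the 10 macrophage genes in the 3 comparisons. Every interval holds 0, and the widest belong to Lyz2 and Tyrobp.

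The precision differed between members. The interval lay within ±1 on the log2 scale for 5 of 10 members in tumour against T-3Mb-Erg HG-PIN, and for 6 of 10 in each of the other 2 comparisons. In each comparison these members included Adgre1, C1qc and Mrc1, whose means lay below the receptor-gene level. Intervals of such dim members bound the intensity and cannot exclude a 2-fold change in RNA. The median SE of the members was 0.30 in each comparison and that of all genes 0.27. For Lyz2 the interval in tumour against control HG-PIN reached 2.36, so a rise of over 4-fold lay within it. A p that misses the threshold does not show that the levels were alike.

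The differences between tumour and HG-PIN were not alike in the 3 mice. Each rests on 1 tumour array and 1 HG-PIN array, so mouse and array cannot be told apart. From HG-PIN to tumour within a mouse, 2 of 10 members were higher in mouse 1, 6 in mouse 2 and 6 in mouse 3, with medians of -0.62, 0.07 and 0.37 on the log2 scale. Lyz2 differed by -1.55, 0.36 and 2.17 in the 3 mice, and Tyrobp by -1.35, -0.40 and 1.58. These 2 genes thus ran in opposite directions in different mice, by more than 2-fold each way.

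**Figure D3:**
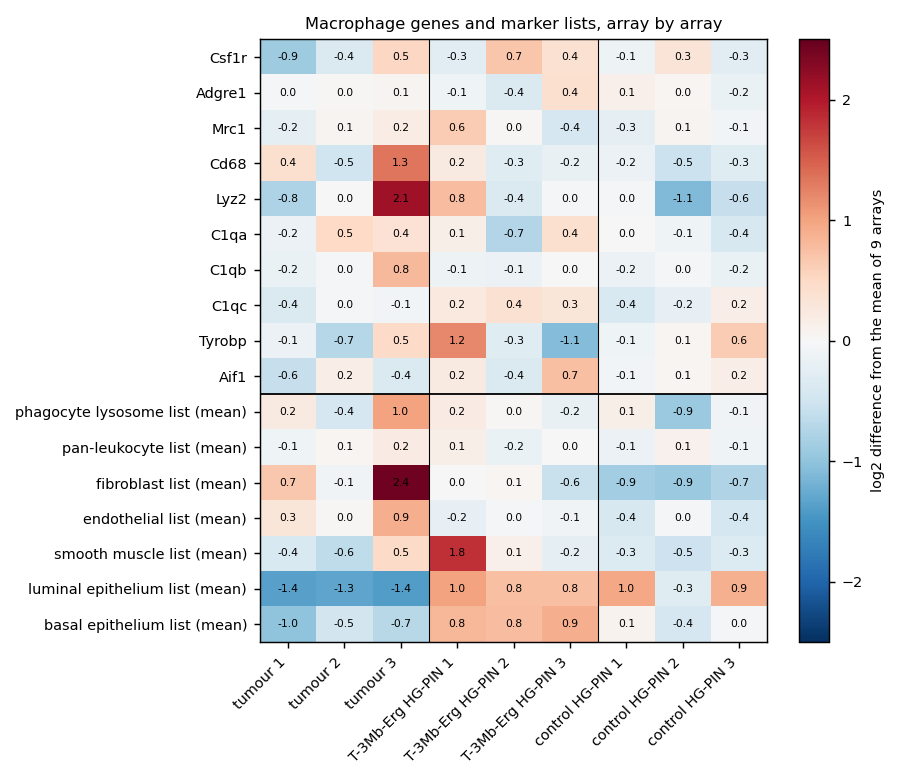
Log2 difference of each macrophage gene (upper rows) and of the mean of 7 marker lists (lower rows) from its mean over the 9 arrays, one column per array. Red is above and blue below that mean; tumour replicate 3 is red for Cd68, Lyz2 and C1qb and for the fibroblast and lysosome lists, and the luminal list is blue in the 3 tumours.

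Members varied with each other on some arrays only. Over the 9 arrays, which share groups, mice and signal range, 31 of the 45 pairs of members had a positive Pearson correlation, with a median over all pairs of 0.15, and of 0.07 without tumour replicate 3. The highest were Lyz2 with C1qb (0.82), Cd68 with Lyz2 (0.79) and Cd68 with C1qb (0.79). Without tumour replicate 3 these were 0.07, 0.30 and -0.49, so they rested on that array. Adgre1 with C1qa (0.77, and 0.78 without that array) and Mrc1 with Tyrobp (0.75 and 0.73) did not. Adgre1 and Mrc1 were however each above the receptor-gene level of the array on 1 of 9 arrays only. Both Mrc1 (4.53) and Tyrobp (7.52) were highest on T-3Mb-Erg HG-PIN replicate 1, and no pair was computed without that array. The signal range of an array, its 95th percentile of log2, had a correlation of 0.66 with the mean of the 10 centred members, 0.87 with Cd68, 0.73 with Lyz2 and 0.65 with Tyrobp. Tumour replicate 3 had the highest range (6.25), and these 4 correlations were not computed without it. The part of the range in the member values was not tested. With that range as a term, the Cd68 difference between tumour and control HG-PIN was 0.44.

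**Figure D4:**
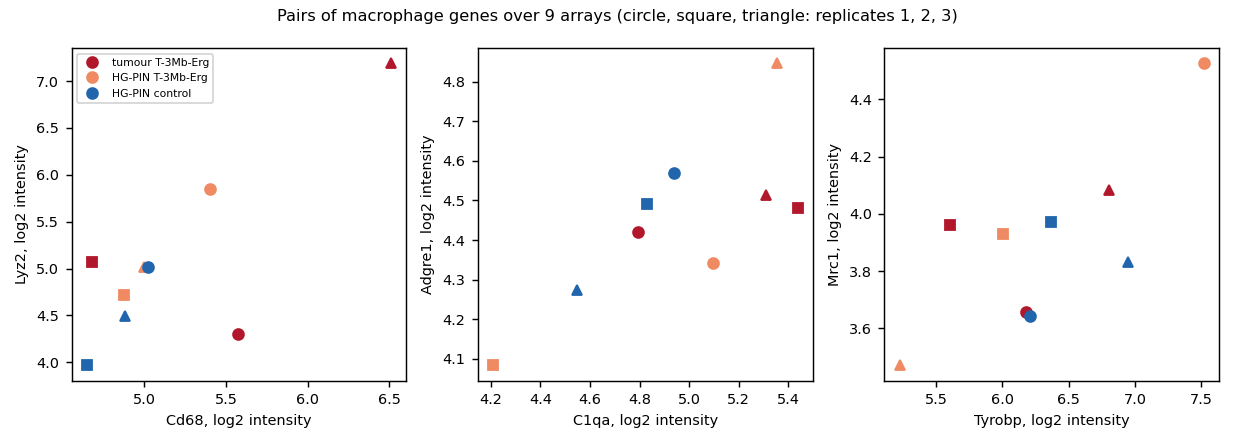
Log2 intensity of 3 pairs of macrophage genes on the 9 arrays, coloured by group, with circles, squares and triangles for replicates 1, 2 and 3. In the panel of Cd68 and Lyz2, tumour replicate 3 lies far to the upper right and the other 8 arrays form a looser cloud.

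The mean of the 10 centred log2 values was -0.29 to 0.55 over the tumours, -0.15 to 0.30 over T-3Mb-Erg HG-PIN, against -0.15 to -0.10 over control HG-PIN. Of 4642 genes above the receptor-gene level, the 10 that followed this mean most closely over the 9 arrays were Atl3 (Pearson r 0.945), Rbpms, Nr3c1, Map1b, Eif5a, Flot2, Dcn, Apoe, Ypel5 and Map2k3 (0.886). Dcn encodes decorin, a matrix proteoglycan of fibroblasts, and Apoe a lipid carrier that macrophages also make. Without tumour replicate 3, Map2k3 had the highest r of all (0.962) and Dcn was 138th with 0.71.

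The partners of C1q were described as a group of 12 genes, of which 10 were tested. Serping1, the inhibitor of the C1 proteases, had log2 intensities of 8.79, 6.95 and 9.02 in tumours, 5.33, 6.10 and 4.60 in T-3Mb-Erg HG-PIN, against 5.03, 4.20 and 4.30 in control HG-PIN. Each tumour array lay above every HG-PIN array. It was called in tumour against control HG-PIN (3.74 ± 0.55 SE, adjusted p = 0.0288 in limma). Serping1 was above the receptor-gene level of the array on 3 of 3 tumour arrays and 1 of 3 control arrays, so the size of this difference is uncertain. It was not called in tumour against T-3Mb-Erg HG-PIN (2.91 ± 0.55, adjusted p = 0.0561). The first call held in 11 of 18 alternative settings, and in 4 of the 9 that left out 1 array (adjusted p from 0.0014 to 0.149; 0.105 without tumour replicate 3 and 0.111 without tumour replicate 1). C1ra, a protease that C1q carries, had a mean log2 intensity of 6.33 in tumours, 5.25 in T-3Mb-Erg HG-PIN, against 6.25 in control HG-PIN, and was not called. In tumour against T-3Mb-Erg HG-PIN, 8 of the 10 differences were above 0 and none was called, and the median was 0.44.

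The growth factor axis of Csf1r had 4 tested genes of 6 and no call in any comparison. Csf1, its main ligand, had log2 intensities of 3.93, 4.08 and 3.99 in tumours, 3.94, 4.01 and 4.43 in T-3Mb-Erg HG-PIN, against 4.79, 4.75 and 4.37 in control HG-PIN. The tumour arrays lay below the control arrays, as for 7.51% of all genes, with a difference of -0.63 ± 0.21 (SE, adjusted p = 0.316 in limma). On every array Csf1 lay below the receptor-gene level of that array, so a fall of the ligand's RNA cannot be read from these values. Of the receptors and kinases around Tyrobp, 10 of 14 were tested and 0 called in any comparison. By mean log2 intensity, 3 of the 12 named lay above the receptor-gene level. Trem2, which signals through Tyrobp, had 4.61, 4.91 and 6.15 in tumours, 4.12, 4.54 and 4.73 in T-3Mb-Erg HG-PIN, against 4.67, 5.15 and 4.51 in control HG-PIN, in log2 intensity. Fcer1g, the Fc receptor gamma chain, had a difference of 1.24 ± 0.50 in tumour against T-3Mb-Erg HG-PIN (adjusted p = 0.543) and 1.57 ± 0.50 in tumour against control HG-PIN (adjusted p = 0.284), and as differences of group means without tumour replicate 3 these were 0.65 and 0.98. Of the myeloid transcription factors, 7 of 9 were tested and 0 called, and Spi1, which encodes the macrophage factor PU.1, differed by 0.12 ± 0.23 in tumour against T-3Mb-Erg HG-PIN. There Cebpa and Cebpb, C/EBP factors of myeloid cells that epithelia also use, differed by -0.83 ± 0.33 (adjusted p = 0.543) and 0.66 ± 0.27 (adjusted p = 0.563). Spi1 and Cebpa lay below the receptor-gene level of the array on every array, so the size of their differences is uncertain.

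Among 13 tested scavenger and surface receptors of macrophages, 1 was called in tumour against T-3Mb-Erg HG-PIN. Cd14, the co-receptor for bacterial lipopolysaccharide, had log2 intensities of 3.70, 3.06 and 3.70 in tumours, 5.58, 5.25 and 4.82 in T-3Mb-Erg HG-PIN, against 4.63, 3.73 and 4.37 in control HG-PIN. It fell by 1.73 ± 0.30 on the log2 scale in tumours (adjusted p = 0.0409 in limma), and the adjusted p was 0.0683 with the mouse as a fixed block. On all 3 tumour arrays Cd14 lay below the receptor-gene level of the array, so the size of its fall is uncertain. It was above that level on 2 of the 3 T-3Mb-Erg HG-PIN arrays. With the tumour values set to that level, Cd14 was at least 1.36-fold lower in tumours. Here and below, such a fold compares group means and allows for background only, not for the spread between arrays. The call held in 10 of 19 settings, and in 4 of the 9 that left out 1 array (adjusted p from 0.0142 to 0.284; 0.211 without tumour replicate 1 and 0.0797 without tumour replicate 2). It was not called in tumour against control HG-PIN (-0.75, adjusted p = 0.424). Of the 15 tested phagocyte lysosome genes, 0 were called in each comparison. Their medians were 0.01 in tumour against T-3Mb-Erg HG-PIN, 0.25 in T-3Mb-Erg HG-PIN against control HG-PIN and 0.36 in tumour against control HG-PIN. As differences of group means with 1 array left out, these medians ranged from -0.27 (without tumour replicate 3) to 0.39 (without tumour replicate 2), from 0.0072 (without control HG-PIN replicate 2) to 0.46 and from 0.04 (without tumour replicate 3) to 0.65. Npc2, a cholesterol carrier of lysosomes, differed by 1.47 ± 0.40 (SE, adjusted p = 0.251 in limma) in tumour against T-3Mb-Erg HG-PIN, and Gpnmb, a lysosomal glycoprotein of phagocytes, by 1.25 ± 0.43 (adjusted p = 0.44; 0.74 without tumour replicate 1). The alternative activation (8 tested), inflammatory activation (10) and MHC class II (5) lists had 0 calls in each comparison. By mean log2 intensity, 2 of 10, 2 of 12 and 1 of 6 of their named genes lay above the receptor-gene level, so most were at background. In tumour against T-3Mb-Erg HG-PIN, Arg1, the arginase of alternatively activated macrophages, differed by -1.08 ± 0.36 (adjusted p = 0.391) and Ccl24, a chemokine, by -0.24 ± 0.19 (adjusted p = 0.917). Ptgs2, the inducible prostaglandin synthase, had 9.06, 4.26 and 4.36 in tumours, against 3.56, 4.36 and 3.63 in T-3Mb-Erg HG-PIN, in log2 intensity. Its difference of 2.04 ± 0.98 (adjusted p = 0.691) rested on tumour replicate 1 and was 0.46 without it. The interferon-induced chemokine Cxcl10 differed by -0.66 ± 0.37 (adjusted p = 0.789; -0.30 without tumour replicate 1). H2-Ab1, a chain of the antigen-presenting MHC class II molecule, differed by -0.64 ± 0.55 (adjusted p = 0.935; -0.19 without tumour replicate 2 and -1.29 without tumour replicate 3) and H2-DMa, which helps to load peptides onto it, by 0.25 ± 0.22 (adjusted p = 0.936). None of these 6 genes passed the test.

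**Figure D5:**
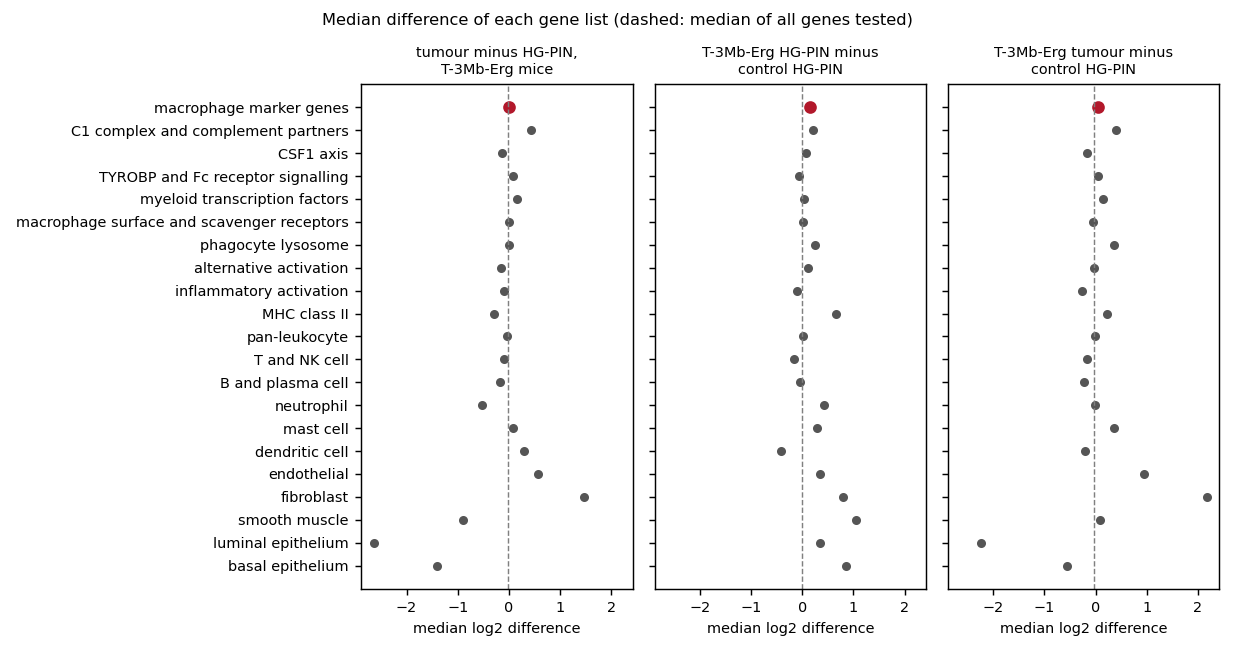
Median log2 difference of the 10 macrophage genes (red) and of 20 other gene lists (grey) in the 3 comparisons, with the median of all genes tested as a dashed line. In tumours the macrophage genes lie near the line, the fibroblast list above it (1.46, and 0.55 without tumour replicate 3) and the luminal and basal epithelial lists below it.

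Markers of epithelium held calls where the macrophage list held none. In tumour against T-3Mb-Erg HG-PIN, 4 of 6 tested luminal genes (Krt8, Epcam, Cdh1 and Foxa1) and 1 of 3 basal genes (Krt15) fell, with list medians of -2.64 and -1.41. With the mouse as a fixed block, the call of Foxa1 held (adjusted p = 0.0359 in limma) and those of Krt8 (0.0609), Epcam (0.0555), Cdh1 (0.0682) and Krt15 (0.0572) did not. Without tumour replicate 1, no gene of the whole table was called in that comparison, Krt8 included (-2.74, adjusted p = 0.171 in limma). Foxa1 lay below the receptor-gene level of the array in all 3 tumours, and with them set to that level it was at least 5.16-fold lower in them than in T-3Mb-Erg HG-PIN. Epcam and Cdh1 were each above that level in 1 of the 3 tumours and Krt8 in 2, so the sizes of their falls are uncertain too. Krt15 was above it in all 3. The summed intensity of the luminal list was 190.1 to 318.4 in tumours, 930.7 to 1194 in T-3Mb-Erg HG-PIN, against 385.8 to 988.6 in control HG-PIN. The fibroblast list had 8 of 8 tested differences above 0 and a median of 1.46, with 0 called (Pdgfra 1.95, adjusted p = 0.168; Col1a1 1.68, adjusted p = 0.294). Without tumour replicate 3, 4 of the 8 differences of group means were above 0 and the median was 0.55. Its summed intensity was 387.1 to 3385 in tumours, 229 to 567 in T-3Mb-Erg HG-PIN, against 164 to 201.1 in control HG-PIN. Tumour replicate 3 held the highest fibroblast value and also the highest Cd68, Lyz2 and C1qb. The correlation of the macrophage mean over the 9 arrays was 0.64 with the fibroblast list and 0.68 with the smooth muscle list. Tumour replicate 3 had the highest macrophage mean (0.55) and the highest fibroblast mean (2.44, with 0.68 in tumour replicate 1 next). T-3Mb-Erg HG-PIN replicate 1 had the highest smooth muscle mean (1.83) and the next highest macrophage mean (0.30). These correlations were not computed with an array left out, so how far they rest on single arrays is not known. The part of these cell types in the macrophage values was not tested.

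Leukocyte lists gave few calls. Arhgdib, which is abundant in leukocytes and which other cells also make, had 5.10, 4.81 and 5.31 in tumours, 3.72, 3.66 and 3.66 in T-3Mb-Erg HG-PIN, against 3.90, 4.04 and 3.89 in control HG-PIN, in log2 intensity. It was below the receptor-gene level of the array in all 6 HG-PIN samples and above it in 2 of the 3 tumours. It was the 1 called gene of 9 tested pan-leukocyte genes, at 1.39 ± 0.19 (SE, adjusted p = 0.018 in limma; 0.0993 with the mouse as a fixed block) against T-3Mb-Erg HG-PIN, and called too at 1.13 ± 0.19 (adjusted p = 0.0486) against control HG-PIN. With the HG-PIN values set to the receptor-gene level, it was at least 1.27-fold and at least 1.05-fold higher in tumours, so the size of the rise is uncertain. With 1 array left out, the first call held in 6 of 9 fits (adjusted p from 0.0101 to 0.173) and the second in 1 of 9 (from 0.0098 to 0.242; 0.135 without tumour replicate 3). Ltf, lactoferrin, which neutrophils and glandular epithelium both make, was 3.74 in tumours, 6.58 in T-3Mb-Erg HG-PIN, against 5.85 in control HG-PIN (mean log2 intensity). It fell by 2.84 ± 0.30 in tumours relative to T-3Mb-Erg HG-PIN (adjusted p = 0.0040) and by 2.11 ± 0.29 relative to control HG-PIN (adjusted p = 0.0253), and was the 1 called gene of 6 tested neutrophil genes in each. Ltf lay below the receptor-gene level of the array in all 3 tumours, and with them set to that level it was at least 3.51-fold and at least 2.11-fold lower in tumours. With 1 array left out, these calls held in 8 of 9 fits (adjusted p up to 0.0676, without tumour replicate 1) and 4 of 9 (up to 0.153). The T and NK cell (7 tested), B and plasma cell (4), dendritic cell (6) and mast cell (1) lists had 0 calls in each comparison. By mean log2 intensity, 1 of 10, 2 of 6, 2 of 7 and 0 of 7 of their named genes lay above the receptor-gene level of 4.80. Most of these genes were thus at background, and 0 calls does not show that their RNA was unchanged. Among the genes of these lists named next, only Cd209a had a mean above that level (6.09). In tumour against T-3Mb-Erg HG-PIN their genes with the smallest p were Gzma (-0.39) and Cd8a (-0.23), Cd79b (-0.26) and Mzb1 (-0.21), Cd209a (0.41) and Xcr1 (0.32), and Kit (0.08), as log2 differences that did not pass the test. The endothelial (6 tested) and smooth muscle (6) lists had 0 calls as well. By mean log2 intensity, 1 of 7 named endothelial genes and 4 of 6 smooth muscle genes lay above the receptor-gene level. Emcn was at 1.02 and Pecam1 at 0.87, or 0.66 and 0.47 without tumour replicate 3, and Myl9 was at -0.96 and Myh11 at -1.37, or -0.53 and -0.46 with HG-PIN replicate 1 of the T-3Mb-Erg mice left out. Of the leukocyte genes, Cd79b (0.12 with HG-PIN replicate 3 of these mice left out) and Mzb1 (0.04 without tumour replicate 1) changed sign.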

How the data were processed

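Per the labels' protocols, RNA from laser-captured, fixed prostate lesions was amplified (NuGEN Ovation) and put on 9 arrays. The deposited values are intensity on a linear scale for 41345 probe sets; how the authors corrected, summarised and normalized them is not given in the sources used here. No depth exists for arrays, and 3 per group limit the precision. Groups follow the genotype and lesion of each label. An allele shared by both genotypes is not reported here.

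Names came from the platform annotation, updated with RefSeq identifiers (23521 had 1 symbol, 1814 several and 16010 none). Values were log2-transformed (floor 1), the brightest probe set kept for each of 22180 symbols, and the lowest 25% by mean (below 3.25) removed, leaving 16635 genes. limma 3.58.1 in R 4.3.3 fitted group means over 9 arrays with the mouse as a random block (consensus correlation -0.01), a mean trend and Benjamini-Hochberg adjustment. Tumour and HG-PIN of T-3Mb-Erg mice are paired by the labels' mouse identifiers; same-mouse deviations correlated at 0.17, 0.10 and -0.30. On data simulated with independent noise, without pairing by mouse, the fit of tumour against T-3Mb-Erg HG-PIN made 3 false calls. It recovered 22% of 100 genes changed by 1 on the log2 scale and 72% of 100 genes changed by 2. The members and lists were chosen with earlier results of these data known. Named genes were all members, called genes of each list or else up to 2 with the smallest p, and partners of the members; the genes most like the members were ranked by Pearson r. Alternatives were 2 normalizations, a pseudocount of 16, no filter, other blocks, no trend, mean of probe sets, compared groups only, signal range as a term, and each array left out; those run on Arhgdib, Cd14, Cdh1, Epcam, Foxa1, Krt15, Krt8, Ltf and Serping1, and the differences of group means of the other lists with 1 array left out, were chosen after seeing the data.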

Additional observations from a re-analysis of the deposited data

How the results depend on the processing

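No member was called under any setting run (19 in tumour against T-3Mb-Erg HG-PIN, 18 in each other comparison), and the smallest adjusted p of a member over all of them was 0.102 in limma. Counts of called genes moved. In tumour against T-3Mb-Erg HG-PIN (47 genes) they were 72 with quantile normalization, 18 with log2(value + 16), 26 with mouse as a fixed block for pairing and 180 with signal range as a term, and 0 (without tumour replicate 1) to 110 (without tumour replicate 2) with 1 array left out. In T-3Mb-Erg HG-PIN against control HG-PIN (0 genes) they were 4 with the compared groups only, 6 with the range term and 0 to 6 with 1 array left out. In tumour against control HG-PIN (30 genes) they were 65 with quantile normalization, 50 scaled on the 75th percentile, 7 with log2(value + 16), 7 with the compared groups only, 171 with the range term and 0 (without control HG-PIN replicate 3) to 261 (without tumour replicate 2) with 1 array left out. The cause was not tested. The fixed block changed no member's call; it ended the calls of Arhgdib, Cd14, Krt8, Epcam, Cdh1 and Krt15 against T-3Mb-Erg HG-PIN, as given above.

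Some differences changed sign. Adgre1 in T-3Mb-Erg HG-PIN against control HG-PIN was 0.028 with quantile normalization and 0.015 scaled on the 75th percentile, C1qb there was -0.026 with the range term, and C1qc in tumour against control HG-PIN was 0.024 and 2e-04 under the 2 normalizations. With 1 array left out, the ranges in tumour against T-3Mb-Erg HG-PIN were -0.12 to 0.25 for Adgre1, -0.53 to 0.88 for Lyz2, -0.015 to 0.51 for C1qa, -0.36 to 0.18 for Mrc1 and -0.66 to 0.58 for Tyrobp. In T-3Mb-Erg HG-PIN against control HG-PIN they were -0.23 to 0.15 for Adgre1, -0.10 to 0.42 for C1qa, -0.10 to 0.44 for Mrc1, -0.13 to 0.39 for Aif1 and -0.89 to 0.35 for Tyrobp. In tumour against control HG-PIN they were -0.59 to 0.14 for Csf1r, -0.059 to 0.089 for Adgre1, -0.14 to 0.14 for C1qc, -0.081 to 0.16 for Mrc1 and -0.77 to 0.0065 for Tyrobp. With 3 arrays a group and 5 members near background, small changes were not detectable, and the simulation recovered only 22% of 2-fold changes.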
